A study of Patiria miniata with 6 samples.

Results

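The control embryos of this bat star (Patiria miniata) series were 3 of its 6 RNA sequencing samples, and all 3 are described here. They are the samples labelled with the control morpholino antisense oligonucleotide (MASO), at the hatched blastula stage and 30 hours post fertilization (hpf). Each sample was a pool of embryos whose zygotes had received a 600 µM standard control MASO, a synthetic strand meant to have no target in the embryo, and which grew in artificial seawater at 15 °C. Embryos were chosen by a rhodamine tracer and by healthy morphology, so embryos that arrested or developed abnormally are not represented. The labels do not say whether the 3 samples came from separate spawnings, so the spread between them may be technical. There was no uninjected sample among them, and nothing here is set against the knockdown samples of the series.

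A sea star hatched blastula is a hollow ball of ciliated cells. It has digested its way out of the fertilization envelope with secreted proteases and still carries RNA and protein stored in the egg, while genes of the early ectoderm, endoderm and mesoderm programmes are being transcribed. Its cells are joined into an epithelium that lies between an outer hyaline layer and an inner basement membrane.

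Over 80165 loci, replicates 1, 2 and 3 held 26366415, 26958581 and 25423004 read counts. Values are counts per 1000000 (CPM), the count of a locus scaled by the sum over all loci of its library, so 1 read was worth 0.0371 to 0.0393 CPM. At least 1 read fell on 65090, 64638 and 63434 loci, and 7919 loci had none in any library, which allows up to 0.111 to 0.118 CPM (3 reads, for counting error only). Gene names came from the authors' deposited table of 27630 loci, which held every one of the 22909 loci above 2 CPM in all 3 libraries. A value given for a gene name is that of 1 locus unless a sum is stated, and other loci may carry the same name. CPM counts reads and grows with transcript length, and transcript lengths were not used here, so the order of loci below is an order of reads and not of RNA molecules.

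Of all counts, 55.8% ± 1.12 (SD, n = 3) fell on 12599 loci with a gene name, 12.4% ± 0.0276 on 3510 loci whose name was none, hypothetical or unknown, and 29.9% ± 1.06 on 11521 loci with no gene model. The 52535 loci outside the table held the other 1.93% ± 0.101. The largest share went to 2 neighbouring loci with no gene model on scaffold 32661, from 1 to 7657 and from 7712 to 16391, 54 bases apart and without a strand. The first held 41002, 62437 and 43603 CPM in replicates 1, 2 and 3, and the second 45519.9, 46388 and 44035 CPM. Together they took 8.65%, 10.9% and 8.76% of the counts, and replicate 2 stood above the other libraries at the first of them.

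The counts were concentrated on few loci (plot of cumulative share by rank). The 10 loci with the highest mean CPM held 14% ± 1.06 of the counts, the top 100 held 26.1% ± 0.959 and the top 1000 held 50.8% ± 0.0474. Without the pair on scaffold 32661, the top 10 held 5.77%. Ranked within each library, 919, 930 and 918 loci were enough for 50% of the counts and 11418, 11519 and 11016 for 90%. A level of at least 1 CPM in all 3 libraries was reached by 28628 loci, at least 100 CPM by 1179 and at least 1000 CPM by 52. Of the top 50 loci, 35 had a gene name.

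**Figure D1:**
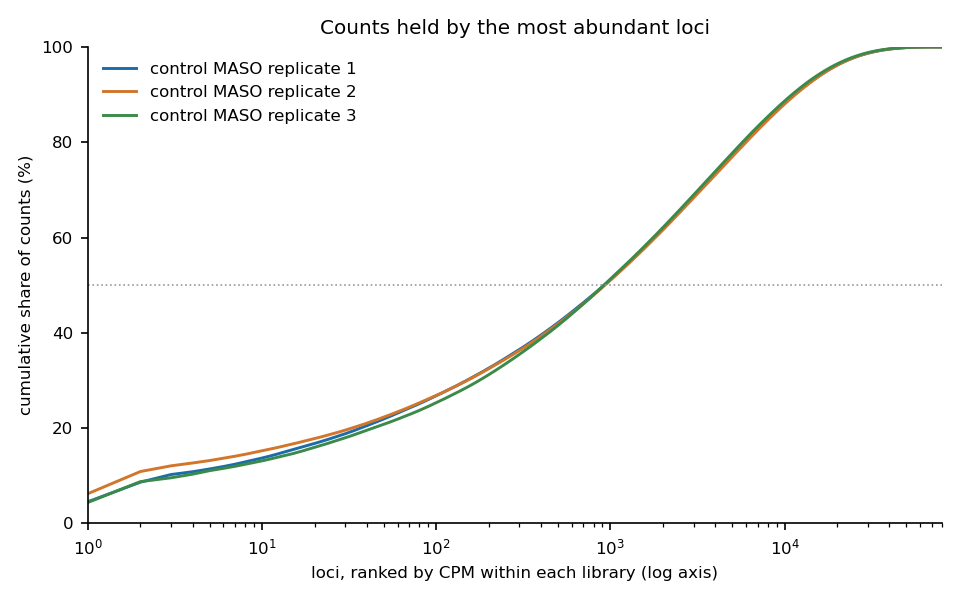
Cumulative share of counts (%) against the rank of a locus within its library (log axis), 1 line per control MASO library; the dotted line marks 50%. The 3 lines cross 50% at 919, 930 and 918 loci, and replicate 2 starts higher because its first locus alone held 6.24% of its counts.

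Among named loci, a locus named for plectin and a locus named for a histone variant led. Pm-Plec, named for plectin, a protein that links intermediate filaments to other parts of the cytoskeleton, had 16052, 12009.6 and 8048 CPM in replicates 1, 2 and 3, which is 12037 ± 4002 CPM (SD, n = 3) and the largest count of any named locus. Its locus on scaffold 617 from 128441 to 130508 spans only 2068 bases, and whether it holds a whole plectin gene was not tested. Replicate 1 held 1.99 times as much as replicate 3. Pm-HH2az, named for the histone variant H2A.Z, had 5796, 6023 and 7699 CPM (scaffold 2295 from 12353 to 19973). Pm-Mt6_mmpL, named for a membrane-type matrix metalloproteinase, had 4865, 4029 and 7338 CPM (scaffold 1964 from 3240 to 18034). Both were highest in replicate 3, whereas Pm-Plec was lowest there.

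The next named loci carried names known from translation, the hyaline layer and the egg. Pm-Ef1a, the translation elongation factor that brings aminoacyl-tRNA to the ribosome, had 5899, 4832 and 4224 CPM. The leading Pm-Egf/HyalinL5 locus, named for a hyalin-like protein with EGF repeats, had 4451, 4264 and 4774 CPM. Pm-Ebr1, named for the egg receptor that binds the sperm protein bindin in sea urchins, had 4790.4, 2673 and 3470.2 CPM. Of these 3, the hyalin-like locus differed least between libraries (CV, the SD over the mean, 5.74%), against 29.3% for Pm-Ebr1. Pm-Soxb1, an HMG-box transcription factor broadly expressed in early echinoderm ectoderm, had 3692, 2904 and 3794 CPM (scaffold 9844 from 41005 to 47977). It was the only transcription factor of the lists used here among the 30 leading named loci. Pm-H1-0, a linker histone, had 2794, 3491 and 3352 CPM.

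The 30 leading named loci held 9.09%, 7.89% and 8.71% of the counts in replicates 1, 2 and 3. The same 24 loci were among the top 30 in every library, and 35 were in at least 1. Their order was loose: of 29 neighbouring pairs, 27 had ranges that overlapped and 4 kept their order in all 3 libraries. Only the steps from Pm-Plec to Pm-HH2az and from Pm-FerHc to Pm-TransglutL had no overlap. Pm-FerHc, the heavy chain of the iron store ferritin, had 2199, 1948 and 2130.0 CPM. Pm-TransglutL, named for transglutaminase, which cross-links proteins, had 1896, 1914 and 1769 CPM.

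**Figure D2:**
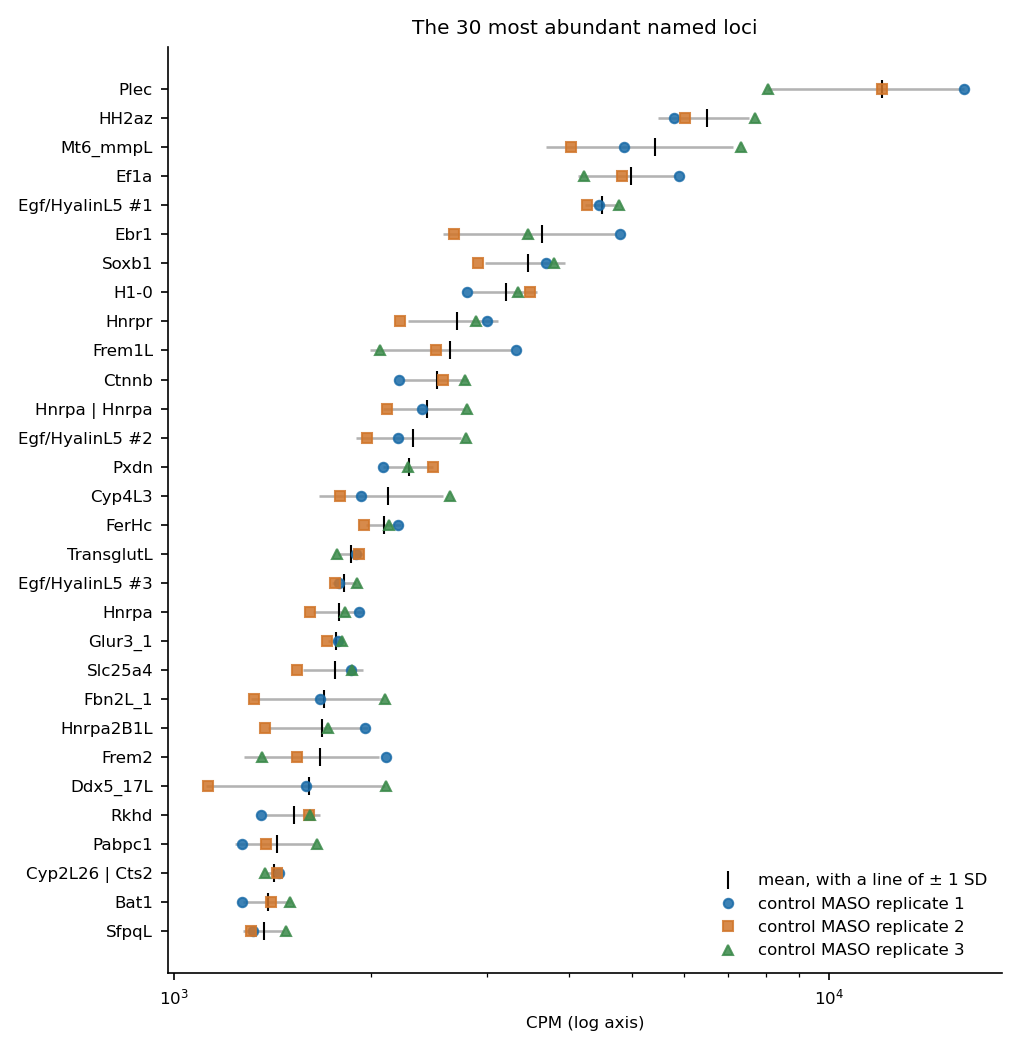
CPM (log axis) of the 30 named loci with the highest mean, 1 row per locus, with the 3 control MASO libraries as points, the mean as a bar and a line of ± 1 SD; loci that share a name are numbered. Pm-Plec spans 8048 to 16052 CPM, and most neighbouring rows overlap.

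Names were then gathered into lists by function. The 2283 loci in any of the 35 lists held 21.8% ± 1.01 of the counts, and 8 lists held at least 1% each. RNA-binding and splicing proteins, which package, splice and export transcripts, held the most, at 4.09%, 3.78% and 4.60% in replicates 1, 2 and 3 over 209 loci. Of these, 70 had a mean of at least 100 CPM. For background, 793 of all 12599 named loci had at least 100 CPM in every library. That rule is stricter than a mean, so these counts of list loci, here and below, are not a like comparison with it. The heterogeneous nuclear ribonucleoproteins led. Pm-Hnrpr had 3003, 2214 and 2884 CPM. A locus carrying the name Pm-Hnrpa at 2 gene models had 2386, 2109.6 and 2796 CPM, and another Pm-Hnrpa locus had 1913, 1609.9 and 1825 CPM. Replicate 2 was the lowest at all 3. Pm-Bat1, an RNA helicase of splicing and mRNA export, had 1268, 1405 and 1501 CPM.

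Matrix proteins came next. The list of basement membrane and other matrix proteins held 1.60%, 1.45% and 1.48% of the counts over 76 loci. Of these, 20 had a mean of at least 100 CPM. Pm-Frem1L and Pm-Frem2, named for Fras1-related proteins that tie epithelia to the basement membrane, had 3324, 2509 and 2062 CPM and, at the more abundant Pm-Frem2 locus, 2103, 1541 and 1359 CPM. Both were highest in replicate 1 and lowest in replicate 3. Pm-Pxdn, named for peroxidasin, which cross-links collagen IV, had 2084, 2486 and 2276 CPM, and Pm-Fbn2L_1, named for the microfibril protein fibrillin, had 1667, 1323 and 2096 CPM. The hyalin-like list held 1.30%, 1.19% and 1.36% over 58 loci that share 9 names. Most of it came from 18 loci named Pm-Egf/HyalinL5, which summed to 10225, 9728 and 11304 CPM. Loci this alike may split or lose reads in counting, and with only the most abundant locus per name the list held 0.590%.

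Cilia and hatching genes, listed as markers of a hatched blastula, were present, and no other stage was compared here. The cilia list of 139 loci held 1.46%, 1.43% and 1.19% of the counts. A mean of at least 100 CPM was reached by 42 of its loci. Pm-Odadc3L2, named for a part of the complex that docks outer dynein arms, had 1316, 1091 and 856 CPM. The leading locus of Pm-Tektin3, a filament protein inside axonemal microtubules, had 629, 584 and 776 CPM, and Pm-Dnah9, an outer-arm dynein heavy chain, had 527, 433 and 364 CPM. In the tubulin list, with 11 loci, replicate 3 stood apart, at 0.225%, 0.236% and 0.115% of the counts. The locus Pm-Atub1|Pm-Atub1|Pm-Tuba3c, which spans 3 alpha-tubulin gene models, had 1436, 1623 and 866 CPM, and the leading Pm-Btub1 locus, a beta-tubulin, had 613, 561 and 174 CPM. The list of cilia genes was lowest in replicate 3 too. In pooled embryos, fewer cells of a kind and less RNA per cell cannot be told apart.

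The protease list, 36 loci, held 0.677%, 0.584% and 0.915%, and its first locus, Pm-Mt6_mmpL, made up 74.6% of it. Pm-He1, named for the hatching enzyme, had 51.4, 277 and 464 CPM at its leading locus (scaffold 1205 from 136227 to 139721) and 14.5, 83.5 and 130.5 CPM at another (scaffold 17973 from 6206 to 7246). At both loci replicate 1 was far below the other libraries, with a CV of 78.3% and 76.6%. Pm-Astacin4, an astacin-type metalloproteinase, was instead highest in replicate 1, with 391, 240.1 and 166 CPM. Pm-Mt1-4/MmpL3, another matrix metalloproteinase-like locus, also did, with 282, 109 and 31.7 CPM. Pm-Bmp1/TldL1, of the tolloid family that cleaves BMP inhibitors and matrix precursors, averaged 209 ± 23.7 CPM (SD, n = 3).

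Of the neuron and immune names listed as markers of cells that differentiate later, most loci were low. The lists covered only some names. Pm-Glur3_1, named for a glutamate receptor, was on neither list and had 1780, 1714 and 1803 CPM. No named locus matched the muscle list, which looked for names of muscle myosin chains (Mhc, Mlc), troponin, titin and Myod. The annotation also writes myosin names as Myh, a form these stems would miss (Pm-Myh9/Myh10/Myh11, 625, 610 and 701 CPM). The empty list therefore does not show that muscle genes were silent. Pm-Tropmy1, a tropomyosin, had 335, 383 and 457 CPM, and tropomyosins occur in non-muscle cells as well. The 24 loci of the neuron list held 0.103%, 0.0671% and 0.104% of the counts with a median of 5.13 CPM per locus. Pm-Syt14, a synaptotagmin, took most of it, with 454, 303 and 512 CPM at its leading locus. Pm-Tph, the enzyme that begins serotonin synthesis, had 61.2, 77.6 and 79.9 CPM, while Pm-Th, tyrosine hydroxylase, had 7.36, 4.93 and 4.56 CPM. The 53 immune loci, mostly scavenger receptors, held 0.115%, 0.0942% and 0.0880%, with a median of 5.24 CPM. Pm-Srcr182 had 204, 298 and 277 CPM, and Pm-C3-2, a complement C3 gene, had 232, 70.0 and 66.0 CPM, with replicate 1 alone high.

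Histones were carried by variants. The 17 histone loci held 1.0%, 1.11% and 1.23% of the counts, and Pm-HH2az alone made up 58.4% of the list. After Pm-H1-0 came Pm-LhH3h, an H3 histone, with 666, 452 and 496 CPM. A linker histone locus, Pm-ClvhH1, whose name marks the cleavage form, had 131, 398 and 276 CPM. A lesser Pm-H1-0 locus had 363, 389.8 and 182 CPM. The leading locus of Pm-HmH2a.1, an H2A histone, had 93.8, 154 and 76.9 CPM. The other histone loci averaged at most 81.5 CPM, such as Pm-EhH4_64, an H4 histone, with 4.78, 4.56 and 3.58 CPM. Histone genes exist in near-identical copies, and reads that align to several places were not assigned to a locus, so these levels are uncertain.

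The machinery of protein synthesis was spread over many loci. The 93 loci of cytosolic ribosomal proteins held 1.21%, 1.04% and 1.03% of the counts, with a median of 85.4 CPM per locus, and 60 of the 93 were highest in replicate 1. For background, over the 12676 loci with a mean of at least 10 CPM, 31.9% were highest in replicate 1, 31.8% in replicate 2 and 36.3% in replicate 3. Such counts of list loci, here and below, had no CPM minimum, so they are not a like comparison with that background. Pm-Rps2_1 had 1070.3, 787 and 649.6 CPM, and Pm-Rpl4 had 709.6, 603 and 527 CPM. Translation factors held 1.22%, 1.08% and 1.12% over 60 loci, 43.7% of it from Pm-Ef1a. Pm-Pabpc1, the poly(A)-binding protein, had 1271, 1382 and 1653 CPM at its leading locus. Aminoacyl-tRNA synthetases, which load tRNAs with amino acids, held only 0.105%, 0.0598% and 0.0560%, and 36 of their 44 loci were highest in replicate 1, beside that 31.9%. Pm-Mars, the methionine enzyme, had 67.2, 18.4 and 17.7 CPM, while Pm-Lars, the leucine enzyme, had 38.2, 37.6 and 39.9 CPM.

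Chaperones were also highest in replicate 1 as a list. The 108 loci held 1.07%, 0.829% and 0.859% of the counts, and 60 were highest in replicate 1, where 31.9% of the 12676 loci were. Pm-Calr, the endoplasmic reticulum chaperone calreticulin, had 967, 510.3 and 351 CPM. Pm-Canx, the membrane-bound relative calnexin, had 656, 522 and 414 CPM at its leading locus. Pm-Hsp702A, of the Hsp70 family, had 936, 531 and 389 CPM. Pm-Hsp90L was level at its leading locus, with 870.3, 828 and 849.8 CPM. Pm-Tcp1, a subunit of the cytosolic chaperonin, was highest in replicate 3, with 249, 224 and 636 CPM at its leading locus.

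Transcripts of egg and germline genes were among the counts. With a single stage sampled, RNA stored in the egg and RNA made by the embryo cannot be told apart. In the egg and yolk list Pm-Ebr1 made up 91.2%, whereas the vitellogenin locus Pm-Vtgn2, a yolk protein gene, had 56.3, 108 and 54.1 CPM. Among 22 germline and maternal loci, with 0.415%, 0.364% and 0.332% of the counts, Pm-Pum, the translational repressor Pumilio, had 1224, 890.4 and 926 CPM. A Pm-Vasa locus that also holds an unnamed gene model had 923, 716 and 536 CPM, and Pm-Oma, of a zinc-finger family of oocyte RNA-binding proteins in the nematode Caenorhabditis elegans, had 821, 714 and 602 CPM. The cell cycle list of 116 loci was highest in replicate 3, at 0.573%, 0.646% and 0.729%, and 61 of its loci were highest there, beside 36.3% of the 12676 loci. Pm-Rrm2_1, the small subunit of ribonucleotide reductase, which makes the precursors of DNA, had 502, 759.7 and 818 CPM at its leading locus. Pm-Cycb3, a mitotic cyclin, had 353, 417 and 544 CPM at its leading locus, and Pm-CycD, a G1 cyclin, had 369, 336 and 352 CPM.

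**Figure D3:**
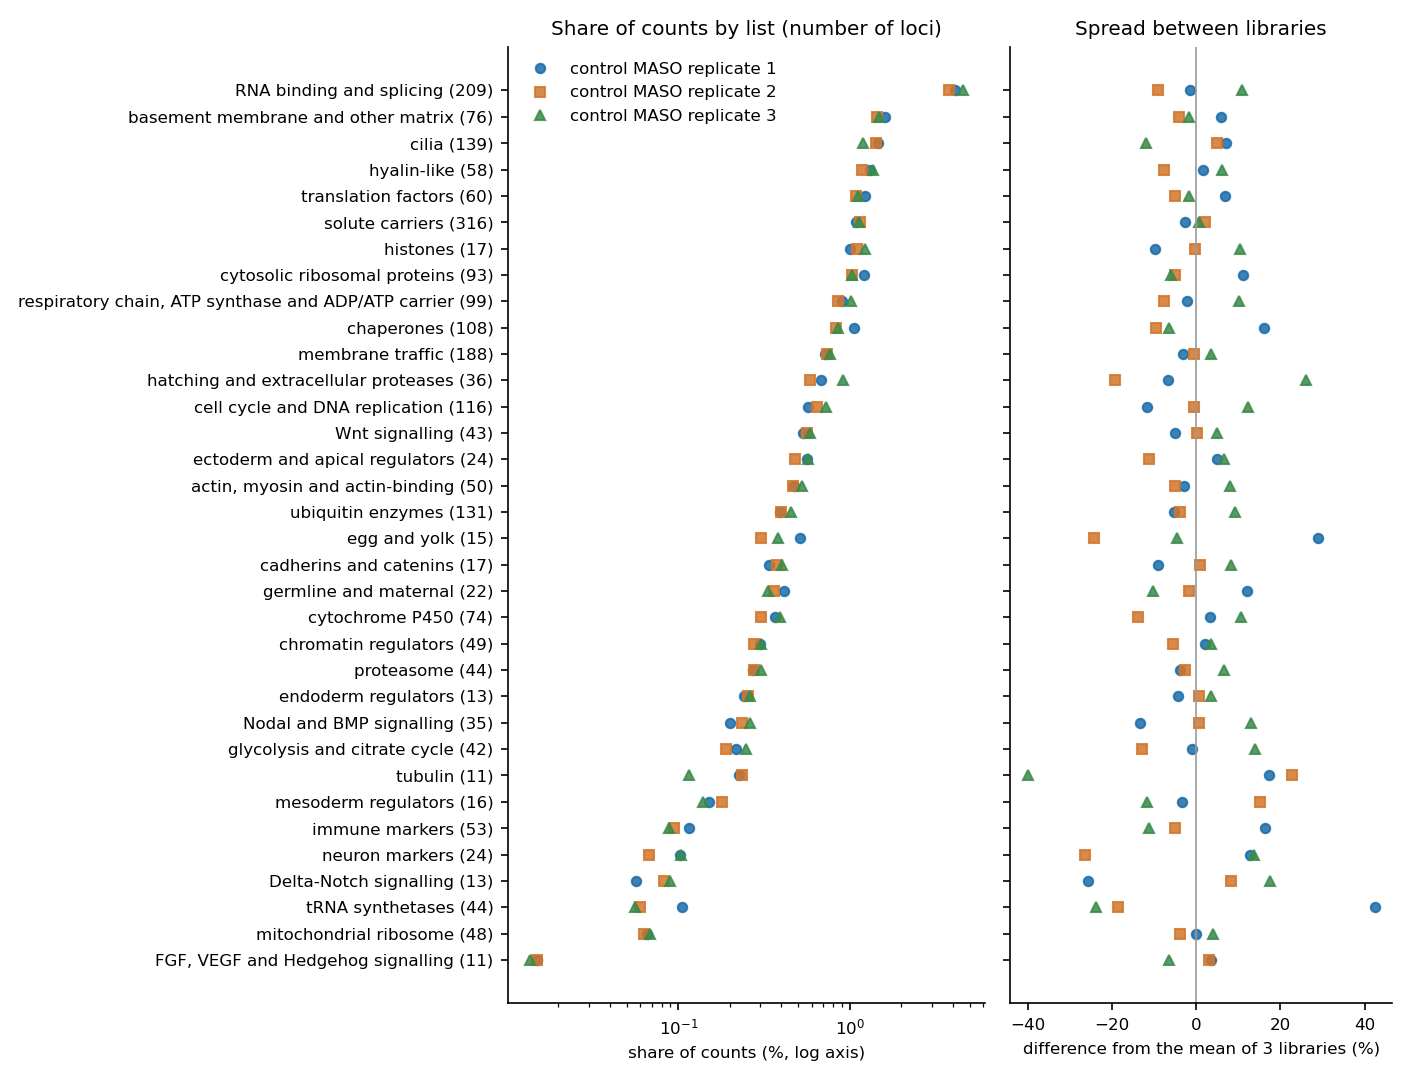
Left, share of counts (%, log axis) of each list of names, with its number of loci, in the 3 control MASO libraries; right, the difference of each library from the mean of the 3 (%). RNA-binding and splicing proteins held the largest share; tubulins were low in replicate 3, and aminoacyl-tRNA synthetases and the egg and yolk list were high in replicate 1.

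Regulators of the germ layers were measurable. The 13 loci of endoderm regulators held 0.241%, 0.254% and 0.261% of the counts (CV of the sum 4.0%), while the median CV of a single locus was 18.4%. Pm-Otx, a homeobox factor, had 785, 733 and 858 CPM (scaffold 658 from 26512 to 66525). Pm-FoxA, a forkhead factor of gut formation, had 624, 709 and 714 CPM (scaffold 11608 from 13310 to 17463). Pm-Bra, the T-box factor Brachyury, had 159, 205 and 187 CPM. Pm-Blimp1, a zinc-finger repressor, had 106, 83.1 and 88.7 CPM, and Pm-Gatae, a GATA factor of the endoderm, had 43.4, 43.1 and 35.8 CPM. No library was highest throughout.

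The ectoderm and apical list, 24 loci with 0.564%, 0.477% and 0.573% of the counts, was dominated by Pm-Soxb1, which made up 64.4% of it. Pm-SoxC, a neurogenic Sox factor, followed with 460.1, 527 and 486 CPM, and Pm-IrxA, an Iroquois homeobox factor, with 234, 339 and 320.1 CPM. Pm-Nkx2.1, a homeobox factor of the apical domain, averaged 98.8 ± 14.7 CPM (SD, n = 3). The less abundant members differed more between libraries. Pm-FoxG, a forkhead factor, had 67.1, 18.3 and 9.72 CPM, and Pm-Zic, a zinc-finger factor, had 23.9, 41.0 and 77.2 CPM. Pm-FoxG was highest in replicate 1 and Pm-Zic in replicate 3.

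Mesoderm regulators held 0.152%, 0.181% and 0.139% of the counts over 16 loci, and 11 of the 16 were highest in replicate 2, beside 31.8% of the 12676 loci. Pm-Jun, a subunit of the AP-1 transcription factor, led with 432, 461 and 291 CPM. Pm-Ets1/2, an ETS factor, had 229.9, 318 and 357 CPM at its leading locus, and Pm-Tgif, a homeobox factor, had 222, 263 and 220.1 CPM. Pm-Gcm, named for glial cells missing, a regulator of pigment cells in sea urchins, had 172, 198 and 127 CPM. Its place on the list rests on its name, and the cells that expressed it were not determined. Pm-Scl, a basic helix-loop-helix factor of blood cell lineages, had 50.9, 27.6 and 5.59 CPM, and Pm-Erg|Pm-Erg, an ETS factor, had 33.8, 28.4 and 9.87 CPM. Both were lowest in replicate 3.

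Of the signalling lists, the Wnt list held the most, with 0.532%, 0.562% and 0.588% of the counts over 43 loci. Pm-Ctnnb, beta-catenin, which carries the Wnt signal to the nucleus and also joins cadherins, made up 44.9% of it at its leading locus, with 2204, 2575 and 2779.8 CPM (scaffold 197 from 58029 to 84275). Among the receptors Pm-Frizz5/8 had 395, 359 and 450.1 CPM and Pm-Frizz1/2/7 had 275, 319 and 247 CPM. The ligands were lower. Pm-Wnt8 had 59.7, 69.1 and 67.1 CPM, and the other Wnt loci averaged 5.35 to 45.8 CPM. Pm-Dsh, dishevelled, which acts below the receptors, had 207, 212 and 289.7 CPM.

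In the Nodal and BMP list, 35 loci with 0.202%, 0.234% and 0.263%, the ligands lay among the leading loci. Pm-Bmp5/6/7/8 had 427, 367 and 667 CPM, and Pm-Bmp2/4 had 105, 105 and 97.5 CPM. Pm-Chordin, a secreted inhibitor of BMPs, had 141, 209.7 and 197 CPM at its leading locus. Pm-Nodal, a TGF-beta ligand that patterns the oral ectoderm, had 97.9, 165 and 217 CPM (scaffold 7423 from 9412 to 13086). Pm-Lefty, its secreted antagonist, had 31.6, 61.9 and 66.5 CPM. Pm-Nodal and Pm-Lefty were lowest in replicate 1, while the receptor Pm-Acvr2_1 was level, with 95.8, 93.0 and 97.2 CPM.

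The Delta-Notch list of 13 loci was also lowest in replicate 1, at 0.0569%, 0.0830% and 0.0900%. Pm-Delta, the ligand, had 107, 166 and 164 CPM, and Pm-Notch, its receptor, had 127, 221 and 273 CPM at its leading locus. Pm-HesC, a helix-loop-helix repressor of the Hes family, had 135, 198 and 199.5 CPM. The FGF, VEGF and Hedgehog list was the smallest with any locus, 0.0145% ± 0.000809 over 11 loci. Pm-Fgf18, a fibroblast growth factor, had 28.4, 21.7 and 42.5 CPM, and Pm-Hh_1, the Hedgehog ligand, had 30.2, 33.0 and 22.7 CPM.

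**Figure D4:**
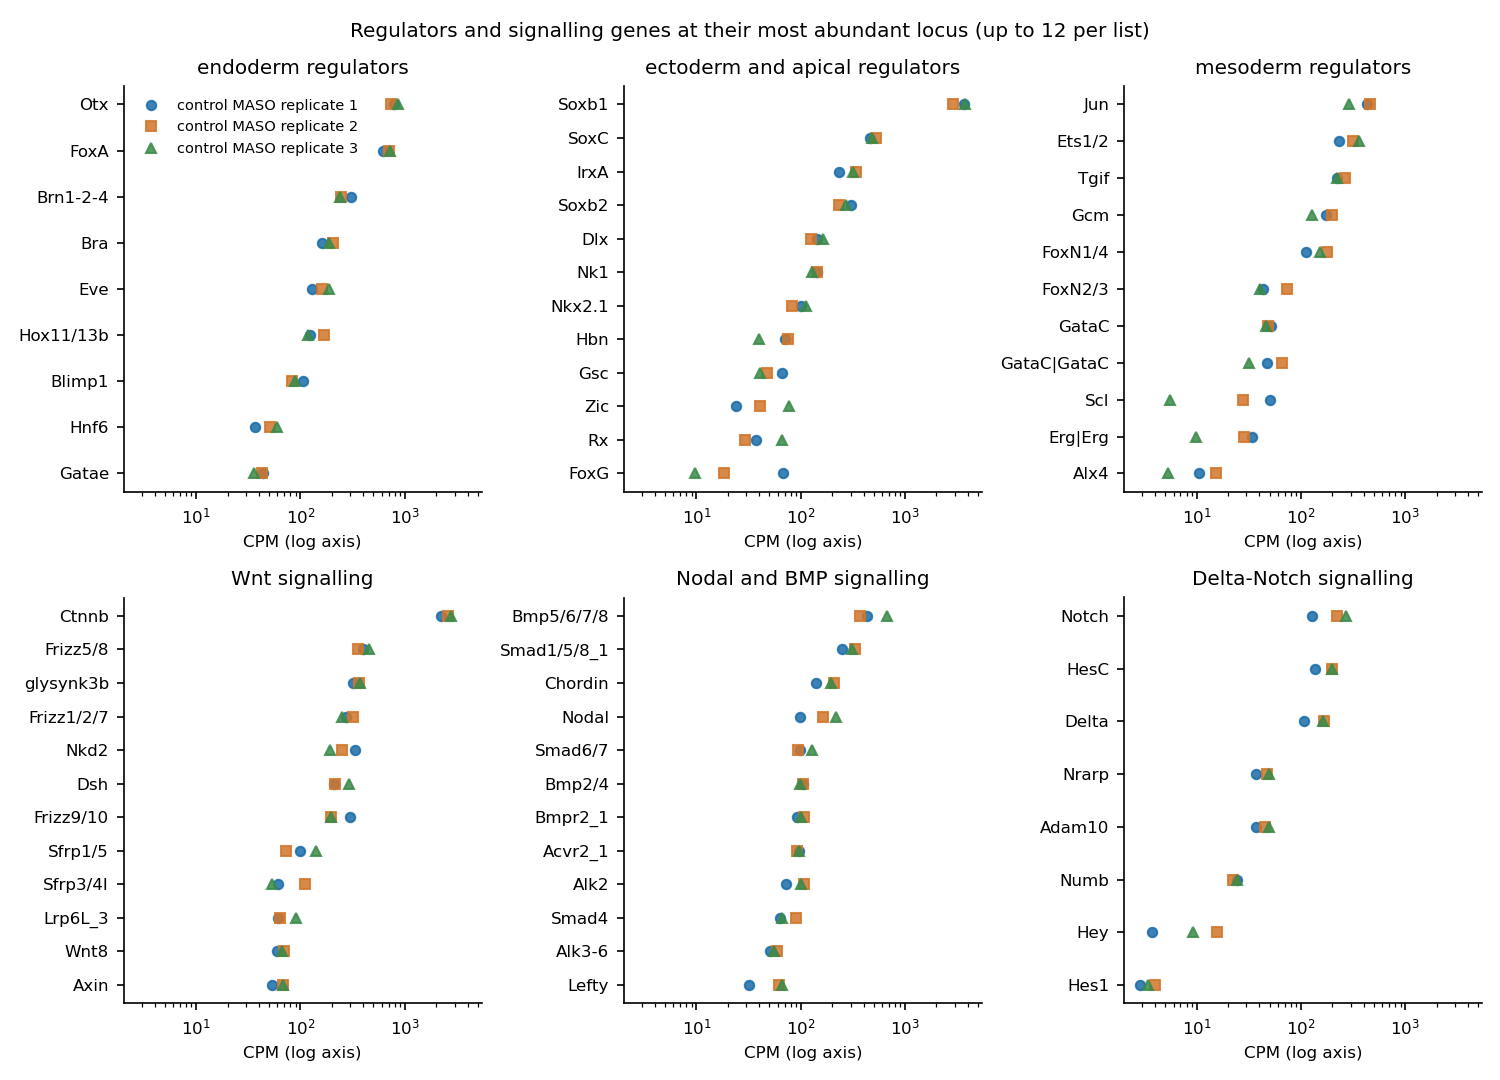
CPM (log axis) of regulators and signalling genes at their most abundant locus, up to 12 names per list, with the 3 control MASO libraries as points. Pm-Soxb1 and Pm-Ctnnb lie between 2204 and 3794 CPM; Pm-Delta, Pm-Notch, Pm-Nodal and Pm-Lefty are lowest in replicate 1, and Pm-Scl and Pm-Erg|Pm-Erg in replicate 3.

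Between libraries, most loci varied by more than counting error gives. Over 12676 loci with a mean of at least 10 CPM the median CV was 20.6%, against 3.83% from counting alone, and the observed CV was above the counting value at 97.3% of them. The ratio of the highest to the lowest library was above 2 at 2533 of these loci. The common biological coefficient of variation of edgeR, which takes the counting part out, was 31.6%. Not a like measure beside the median CV of 20.6%, it was 1 value fitted over all these loci. Its trend was 35.4% near 10 CPM, 27.8% near 100 and 26.2% near 1000. Every pair of libraries differed by more than counting noise, with a chi-square statistic 24.9 to 34.1 times its degrees of freedom, and no library repeats another. Spearman correlations across these loci, which are not independent replicates, were 0.872 for replicates 1 and 2, 0.864 for 2 and 3, and 0.822 for 1 and 3.

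The 8 named loci with the largest CV among 2152 with a mean of at least 50 CPM were mostly high in replicate 1. A locus holding 2 Pm-Pks1 gene models, named for the polyketide synthase of pigment synthesis, had 1091, 131 and 45.8 CPM (CV 137%), and another Pm-Pks1 locus on the same scaffold 3 had 1780.3, 701 and 228 CPM. Pm-Ets4, an ETS factor, had 464, 118 and 22.8 CPM. Pm-Fb3 had 174, 21.0 and 18.6 CPM, and Pm-Cyp2U, a cytochrome P450, had 153, 42.7 and 25.4 CPM. These 5 loci and Pm-Mt1-4/MmpL3 were highest in replicate 1 and lowest in replicate 3; the cause was not tested. A locus of Pm-Prpf31, a splicing factor, was high in replicate 3 instead, with 27.7, 35.5 and 152 CPM. Pm-PppL_115 had 129 and 129 CPM in replicates 1 and 3 and 0.297 CPM (8 reads) in replicate 2.

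The 8 with the smallest CV differed by little between libraries. Pm-Lamg1, a laminin gamma chain of the basement membrane, had 275, 273 and 272 CPM, a CV of 0.505% against 1.18% from counting alone. Pm-Papss_1, the enzyme that makes the sulfate donor for proteoglycans, had 859.8, 847 and 861 CPM. Pm-Sfrs7l, a splicing factor, had 842, 857 and 851 CPM, and a Pm-Atp5a1 locus, the ATP synthase alpha subunit, had 255, 259.8 and 260.3 CPM. A Pm-Hsp901 locus, an Hsp90 chaperone, had 127, 126 and 124 CPM, but the 5 loci of that name summed to 355, 220.2 and 211 CPM. Pm-Ck1d, Pm-Tsnaxip1 and Pm-Sec61b_1 completed the set. The CV lay below the counting value at 6 of the 8, which were picked as the smallest of 2152 values.

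**Figure D5:**
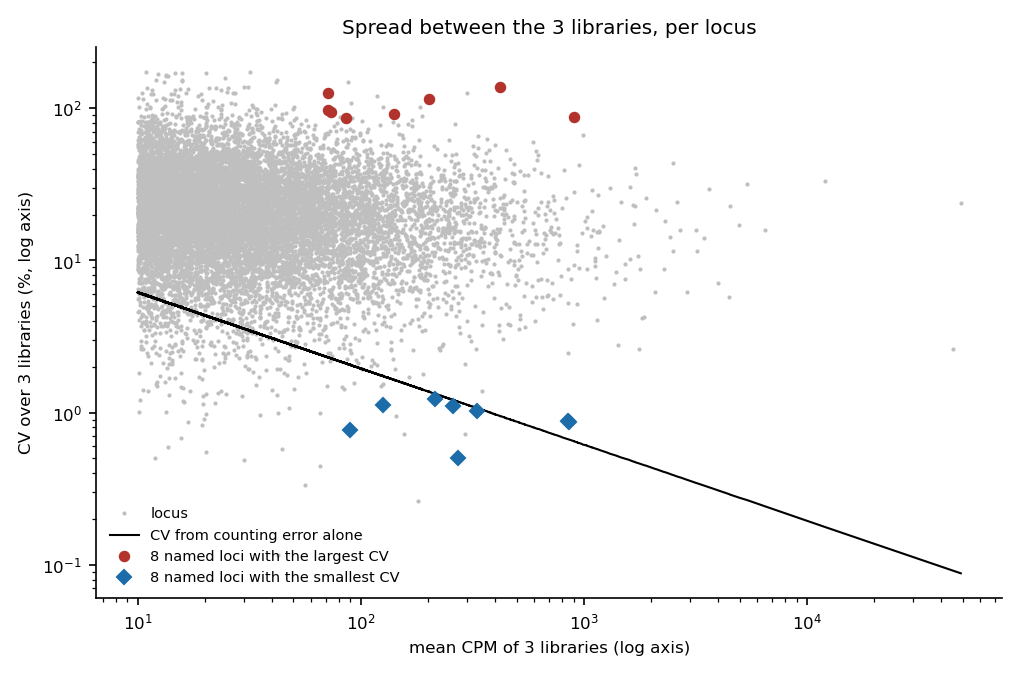
CV over the 3 control MASO libraries (%, log axis) against mean CPM (log axis) for loci with a mean of at least 10 CPM; the line is the CV that counting error alone gives. Most loci lie above the line; the named loci with the largest CV (circles, up to 137%) and the smallest (diamonds, down to 0.505%) are marked.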

How the data were processed

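RNA of 3 control MASO samples was sequenced, and for each the authors deposited a file of raw read counts by locus. A table of their own comparison was used for gene names and positions alone; its fold changes and p-values were not used. Among the programs in the submitters' processing notes are HTSeq 0.6.1p1, TopHat2 2.0.12, Cufflinks 2.2.1, CASAVA 1.8, SAMtools and edgeR 3.10.5. Genome build, annotation and strand setting: not given in the sources used here, so reads of overlapping and antisense loci may be lost or counted at the wrong locus. Ambiguous reads, 2.87% to 2.94% of all entries, were counted at no locus. The 5 summary lines of each file stayed out of the total; they held 49.6% to 50.4% of all entries, mostly alignments to several places (44.4% to 45.2%), so reads of near-identical copies were counted at no locus. Lists matched the stem of a name, and a locus with several names entered a list when each of them matched; 11 memberships repeat a locus of another list. The loci described were drawn from the 30 leading named loci, up to 4 leading loci per list, and regulators and ligands at their most abundant locus. The 8 largest and 8 smallest CVs at a mean of at least 50 CPM were added. Not every locus of these sets is given in the text. Others of a list were chosen after their values were seen, and the lists and loci were chosen with earlier results of these data known. With 1 group there was no contrast and no test. edgeR 4.0.16 (TMM factors and dispersion with an intercept only) and DESeq2 1.42.0 (size factors) ran in R 4.3.3, the rest in Python 3.11.15 with pandas 2.3.3. The scripts for shares and spread were tested on simulated data. Alternatives were other denominators, CPM minimums, library scalings, 1 locus per name and each library left out. Limits from zero counts cover counting error only.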

Additional observations from a re-analysis of the deposited data

How the results depend on the processing

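With summary lines in the denominator, the share in the top 1, 10, 100 and 1000 loci was 2.45%, 7.0%, 13.1% and 25.4%, and without the pair on scaffold 32661 (an alternative chosen after seeing the data) it was 1.33%, 5.77%, 18.6% and 45.7%. With only loci of the authors' table, the top 1000 held 51.8%, and leaving out a replicate gave 50.8% to 50.9%. All lists together held 10.9% with summary lines, 39.1% of counts on named loci, 24.1% without the pair and 17.5% with 1 locus per name. In the order RNA binding, basement membrane, cilia, hyalin-like, translation factors, solute carriers, histones, ribosomal proteins, the shares were 2.08%, 0.756%, 0.680%, 0.643%, 0.571%, 0.562%, 0.557% and 0.546% with summary lines, and 7.45%, 2.71%, 2.44%, 2.30%, 2.05%, 2.02%, 2.0% and 1.96% of counts on named loci. Without the pair they were 4.59%, 1.67%, 1.42% (hyalin-like), 1.26%, 1.24%, 1.23% and 1.2%, the cilia list moving by less than its SD. With 1 locus per name they were 3.32%, 1.26%, 0.969%, 0.590%, 0.996%, 0.924% and, for ribosomal proteins, 0.910%; solute carriers of at least 10 CPM held 1.05%. RNA binding stayed first and basement membrane second under all 8 alternatives. The median CV was 26.8%, 18.3% and 16.6% at 1, 50 and 100 CPM, 46.6% with any count, and 15.4% to 19.0% with a replicate left out. The biological coefficient of variation was 35.9% with filterByExpr, 49.7% with any count, and 28.8% to 35.7% with a replicate left out. A CV over fewer libraries has a lower median at the same spread, so the median CVs with a replicate left out are not a like comparison. The cause of the changes in the biological coefficient of variation with a replicate left out was not tested. The number of loci above 1 CPM and the number holding 50% of the counts stayed within 1.5 times under every alternative run. No paired analysis was possible because there is 1 group and no test. Depth limits values near the 3-read floor, and 3 libraries limit every SD.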

Other observations

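Transporters and detoxifying enzymes, grouped after their names were seen, were also described. The 316 solute carrier loci held 1.09%, 1.15% and 1.13% of the counts in replicates 1, 2 and 3, a summed share with a CV of 2.36%. The median CV of a single solute carrier locus was 25.3%, with no CPM minimum and a median level of 11.5 CPM. Over all loci the median CV was 31.8% from 1 to 10 CPM and 21.6% from 10 to 50 CPM. The 20.6% given above applied a minimum of 10 CPM, so it is not a like comparison. Pm-Slc25a4, the mitochondrial ADP/ATP carrier, had 1860.2, 1541 and 1869 CPM. Pm-Slc6a5_1, of the family of sodium-coupled neurotransmitter and amino acid transporters, had 870.3, 1150.2 and 919 CPM at its leading locus, and Pm-Slc34a2_1, a sodium-phosphate carrier, had 377, 570.1 and 402 CPM. Both were highest in replicate 2. The 74 cytochrome P450 loci held 0.364%, 0.304% and 0.390%, and Pm-Cyp4L3 made up 60.0% of that, with 1926, 1789 and 2635 CPM. The other loci of that list averaged at most 109 CPM. A locus that carries both a P450 name and another, Pm-Cyp2L26|Pm-Cts2, was outside the list and had 1448, 1435 and 1374 CPM.

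The list of respiratory chain, ATP synthase and ADP/ATP carrier genes, 99 loci, held 0.902%, 0.851% and 1.02% of the counts. Pm-Slc25a4, which is on the solute carrier list too, made up 19.0% of it. Pm-Atp5g1, a subunit of the ATP synthase ring, had 658, 606 and 678 CPM. Glycolysis and the citrate cycle held 0.216%, 0.190% and 0.249% over 42 loci. Pm-Cs, citrate synthase, had 297, 291 and 504 CPM, and Pm-Gapd, glyceraldehyde-3-phosphate dehydrogenase, had 246, 192 and 317 CPM; both were highest in replicate 3.

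Of 34 lists with at least 1 locus, 21 had their highest share in replicate 3, 10 in replicate 1 and 3 in replicate 2. Over the 12676 loci with a mean of at least 10 CPM, 36.3% were highest in replicate 3, 31.9% in replicate 1 and 31.8% in replicate 2. A share depends on the rest of its library, and all named loci together held 56.3%, 54.5% and 56.5% of the counts in replicates 1, 2 and 3. Of the 40 named loci with the largest CV at 50 CPM or more, 23 were highest in replicate 1, 4 in replicate 2 and 13 in replicate 3.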
